A study of Homo sapiens with 6 samples.

Results

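The 10 genes described here encode the core of the Hippo pathway and the transcription factors at its end: the MST kinases STK3 and STK4, the LATS kinases LATS1 and LATS2, the coactivators YAP1 and WWTR1, and the DNA-binding factors TEAD1, TEAD2, TEAD3 and TEAD4. They were taken by symbol from a table of 56505 gene rows, and all 10 were found and passed the filter on low counts. RNA sequencing was done on 6 libraries labelled MDA-MB-468, a basal-like line derived from human triple-negative breast cancer, grown in serum with no further treatment. In 3 libraries the cells carried a control hairpin in the pLK0 vector (shControl), and in the other 3 a hairpin against cytokeratin 5, the product of KRT5 (shCK5-22 in the titles, shCK5 from here on). The knockdown group rests on 1 hairpin, and no untransduced cells are among the libraries. The labels do not say whether replicates were separate cultures. The p-values therefore set the group difference only against the spread among these libraries, and that spread may be technical.

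In the Hippo pathway, MST kinases with their adaptor SAV1 activate LATS kinases with MOB1, and LATS kinases phosphorylate YAP1 and TAZ, the protein of WWTR1, which are then held in the cytoplasm or degraded. Unphosphorylated YAP1 and TAZ enter the nucleus and bind TEAD factors, which carry them to DNA. The pathway senses cell density, polarity and tension in epithelia, and much of its control is by phosphorylation and localization, which RNA levels do not show.

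KRT5 was 124-fold lower in shCK5, at 2056, 2060 and 2017 CPM (counts per 1000000, scaled by the TMM method) in shControl against 17.2, 15.5 and 16.5 CPM in shCK5. RB1 and SMAD4, both known to be deleted in this line, had 2.00 ± 0.136 and 0.235 ± 0.138 CPM in shControl but 101 ± 2.16 and 16.9 ± 0.547 CPM in shCK5 (SD, n = 3). The shCK5 libraries thus go against their cell line label and may not be MDA-MB-468, and every result below compares libraries by label. Epithelial markers fell in 9 of 10 genes, with a summed level of 5403 to 5497 CPM in shControl and 1514 to 1546 CPM in shCK5. Mesenchymal markers rose in 6 of 8, from a sum of 57.0 to 60.7 CPM to one of 1310 to 1328 CPM. Of all genes tested, 41.7% were lower and 40.9% higher. VIM (987 CPM) and FN1 (214 CPM) made up most of the mesenchymal sum in shCK5. Going the other way, CLDN4 rose 1.78-fold among the epithelial markers and SPARC fell 5.47-fold among the mesenchymal ones. TWIST1 did not pass the test described below. Sums of the fibroblast, leukocyte and endothelial lists were at most 35.3 CPM in any library. Of the tested fibroblast markers 1 was higher (PDGFRB, 9.11-fold) and 2 lower, among them FAP (23.6-fold). Endothelial markers included 2 higher and 3 lower, among the latter CDH5 (35.4-fold). CD68, in the leukocyte list, is listed at 0 in every library, which was not read as lack of expression. Of the leukocyte markers LCP1 rose, from 1.57 ± 0.15 to 33.0 ± 2.05 CPM, while CD14 fell from 5.02 ± 0.676 to 0.798 ± 0.217 CPM and PTPRC from 0.697 ± 0.137 to 0.0623 ± 0.0322 CPM. The part of these shifts in the results below was not tested, and the hairpin and a difference in the origin of the cells cannot be told apart in this design. In bulk RNA, fewer cells of a type and less RNA per cell cannot be told apart either.

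All 10 genes differed between the groups at a threshold of 0.05 on the Benjamini-Hochberg adjusted p of edgeR's quasi-likelihood test: 4 were higher in shCK5 (STK4, LATS2, WWTR1 and TEAD1) and 6 lower (STK3, LATS1, YAP1, TEAD2, TEAD3 and TEAD4). Across the 19567 genes tested, 82.7% passed (40.9% higher and 41.7% lower), so passing the test does not set these genes apart. Above 2-fold there were 4 of the 10, LATS2 and TEAD1 higher and TEAD2 and STK3 lower, against 44% of all genes (19.6% higher and 24.4% lower). The same 4 passed edgeR's glmTreat, which tests against a change of 2-fold, as did 36.9% of all genes (16.4% higher and 20.4% lower). The median absolute log2 fold change was 0.679 over the 10 genes and 0.853 over all genes. No overlap between the groups was found for any of the 10, as for 84.2% of all genes. Each of the 4 families held members moving in both directions, and the account below follows the signal from the kinases to the TEAD factors.

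**Figure D1:**
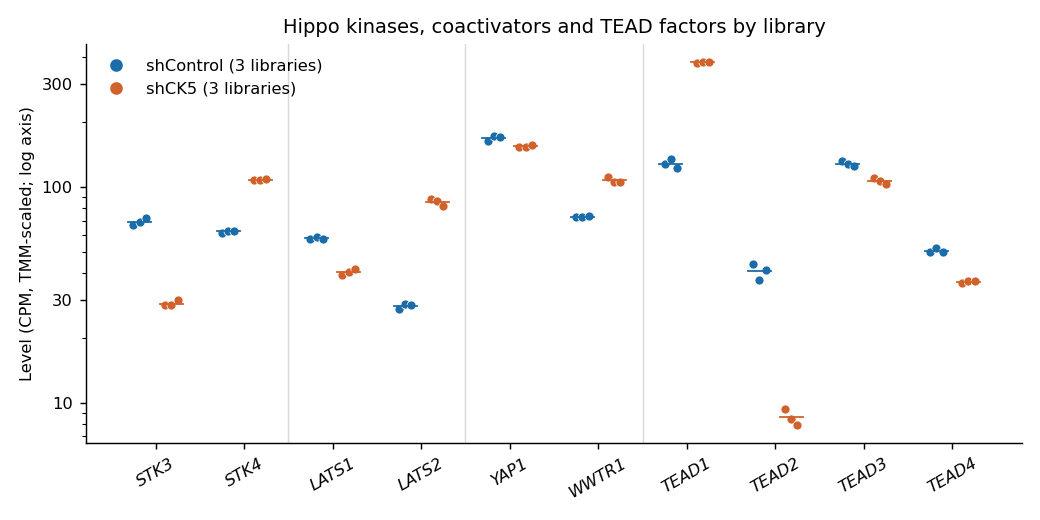
Level of each gene in every library (CPM scaled by TMM, log axis), with a point per library and a bar at the group mean. The shControl and shCK5 points are apart for each of the 10 genes, by the smallest step for YAP1 (170 against 155 CPM) and the largest for TEAD2 (40.8 against 8.56 CPM).

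Promoter windows are printed for the most increased gene (LATS2), the most decreased (TEAD2) and the least changed (YAP1), to set the sequence beside the 3 kinds of outcome. Each is the 250 bases before a RefSeq start on GRCh38.p14, written 5′ to 3′ on the strand of the gene: chr13:21061587-21061836 (minus strand) for LATS2, chr19:49362417-49362666 (minus strand) for the outer of the TEAD2 starts and chr11:102110197-102110446 (plus strand) for YAP1. Capitals mark matches to the letters searched for on both strands: GGAATG (the TEAD core), TGANTCA (AP-1) and CAGGTG (an E-box of the kind bound by ZEB and SNAI factors).
LATS2: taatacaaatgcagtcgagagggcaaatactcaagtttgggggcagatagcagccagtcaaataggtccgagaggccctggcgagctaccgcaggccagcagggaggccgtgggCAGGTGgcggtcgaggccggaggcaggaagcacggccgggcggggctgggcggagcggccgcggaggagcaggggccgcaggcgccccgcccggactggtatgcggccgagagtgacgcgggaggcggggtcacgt
TEAD2: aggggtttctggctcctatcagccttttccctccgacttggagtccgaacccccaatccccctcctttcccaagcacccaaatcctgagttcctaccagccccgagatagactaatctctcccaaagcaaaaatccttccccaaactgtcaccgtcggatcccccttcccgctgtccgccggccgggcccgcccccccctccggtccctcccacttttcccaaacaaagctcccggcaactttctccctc
YAP1: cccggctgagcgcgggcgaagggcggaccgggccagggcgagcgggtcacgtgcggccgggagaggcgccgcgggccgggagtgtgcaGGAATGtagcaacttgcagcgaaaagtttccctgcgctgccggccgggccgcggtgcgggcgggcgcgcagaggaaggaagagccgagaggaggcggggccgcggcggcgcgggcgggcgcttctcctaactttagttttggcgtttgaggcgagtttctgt
The LATS2 window held 1 E-box match, ending 131 bases before the start, and the YAP1 window 1 TEAD match, ending 157 bases before it, whereas that of TEAD2 held none of the 3 motifs. Over 10 windows of 7 of the genes, each motif was found in 1 window, the AP-1 match being in LATS1. Of 35114 RefSeq windows of the same length, 11.9% held the TEAD letters, 6.57% the AP-1 letters and 17.5% the E-box letters. All 3 printed windows were rich in G and C, with 69.6% for LATS2, 60% for TEAD2 and 72% for YAP1, and with 25, 12 and 36 CpG pairs. A match of letters is a description and not a measured site.

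The MST kinases moved in opposite directions. STK3, which encodes MST2 (chromosome 8, 98371228 to 98942827, minus strand, GRCh38), had 67.2, 68.8 and 72.1 CPM in shControl and 28.4, 28.4 and 29.9 CPM in shCK5. Every shCK5 library thus lay below every shControl library, and STK3 fell 2.4-fold (log2 fold change -1.26, SE 0.0392, edgeR adjusted p = 5.96e-20). STK4, which encodes MST1 (chromosome 20, 44966474 to 45079959, plus strand), had 61.6, 62.8 and 62.7 CPM in shControl and 108, 109 and 109 CPM in shCK5. The libraries of each group were close together, and STK4 rose 1.74-fold (log2 fold change 0.80, SE 0.0299, edgeR adjusted p = 3.45e-18). Compared per length, as CPM per kilobase of annotated exon, STK4 made up 55.5% ± 0.742 of the STK3 plus STK4 level in shControl and 83.9% ± 0.38 in shCK5 (SD, n = 3), and the sum went from 12.4 ± 0.257 to 14.2 ± 0.113 CPM per kb. Which MST gene was higher in shControl depends on the length used: by the longest transcript, STK4 made up 43.1% there and 75.9% in shCK5, and the sums, 22.3 to 23.4 CPM per kb in shControl and 22.3 to 22.8 in shCK5, overlapped.

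The LATS kinases, the direct kinases of YAP1 and TAZ, changed places. LATS1 (chromosome 6, 149658153 to 149718256, minus strand) had 57.8, 58.5 and 57.8 CPM in shControl against 38.98, 40.4 and 41.95 CPM in shCK5, with no overlap. It fell 1.44-fold (log2 fold change -0.52, SE 0.0369, edgeR adjusted p = 1.82e-12). LATS2 (chromosome 13, 20973032 to 21061547, minus strand), whose gene is itself a known target of YAP1 and TAZ, had 27.2, 28.8 and 28.6 CPM in shControl and 88.3, 86.0 and 81.6 CPM in shCK5. All shCK5 libraries were high, and LATS2 rose 3.03-fold (log2 fold change 1.60, SE 0.0386, edgeR adjusted p = 3.18e-22), the highest log2 fold change of the 10 genes. In CPM per kb, LATS1 stood above LATS2 in shControl, with a ratio of 1.37, 1.31 and 1.31, and below it in shCK5, with a ratio of 0.285, 0.303 and 0.332. The summed LATS level was 11.8 ± 0.184 CPM per kb in shControl and 20.0 ± 0.439 CPM per kb in shCK5, a difference of 1.7 times and the largest of the 4 families on that scale.

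The coactivators changed by at most 1.48-fold. YAP1 (chromosome 11, 102110461 to 102233423, plus strand) had 164, 173 and 171 CPM in shControl and 154, 153 and 157 CPM in shCK5. The shCK5 libraries lay just under the shControl libraries, and the difference, 1.1-fold lower, passed the test (log2 fold change -0.13, SE 0.0282, edgeR adjusted p = 0.00015). Only 9.1% of all genes tested had a smaller absolute log2 fold change than YAP1. WWTR1 (chromosome 3, 149517235 to 149736714, minus strand) had 72.6, 72.8 and 73.6 CPM in shControl against 111, 105 and 106 CPM in shCK5, again without overlap. It rose 1.48-fold (log2 fold change 0.56, SE 0.0311, edgeR adjusted p = 1.22e-14). YAP1 remained the more abundant of the pair in every library, with a YAP1 to WWTR1 ratio in CPM per kb of 3.03, 3.17 and 3.11 in shControl and 1.85, 1.94 and 1.97 in shCK5. Their sum was 35.6 ± 0.744 CPM per kb in shControl and 37.4 ± 0.479 CPM per kb in shCK5.

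**Figure D2:**
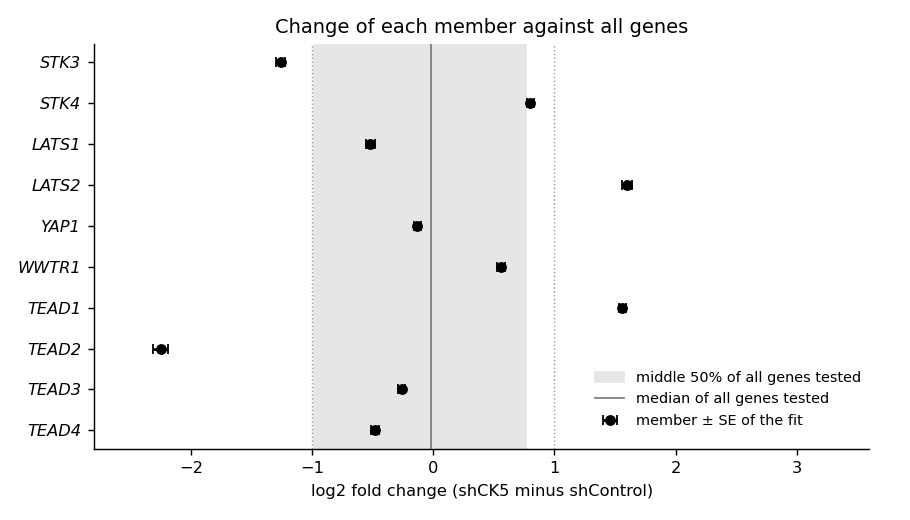
Log2 fold change (shCK5 minus shControl) of the 10 genes with the standard error of the fit. The grey band holds the middle 50% of all genes tested (-0.98 to 0.77) and dotted lines mark a 2-fold change; STK3, LATS2, TEAD1 and TEAD2 lie beyond the dotted lines and YAP1 lies nearest to the median of all genes.

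TEAD1 and TEAD2 held the widest differences among the TEAD factors, in opposite directions. TEAD1 (chromosome 11, 12674591 to 12944483, plus strand) had 128, 135 and 123 CPM in shControl and 376, 381 and 380 CPM in shCK5. It was high in all shCK5 libraries and rose 2.95-fold (log2 fold change 1.56, SE 0.0306, edgeR adjusted p = 4.07e-24). TEAD2 (chromosome 19, 49340595 to 49362457, minus strand) had 44.0, 37.2 and 41.3 CPM in shControl and 9.40, 8.41 and 7.88 CPM in shCK5. All shCK5 libraries were low, and TEAD2 fell 4.76-fold (log2 fold change -2.25, SE 0.065, edgeR adjusted p = 1.36e-20), a larger change than in 79.5% of all genes tested.

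TEAD3 and TEAD4 fell by smaller amounts. TEAD3 (chromosome 6, 35473597 to 35497076, minus strand) had 132, 128 and 125 CPM in shControl and 111, 107 and 104 CPM in shCK5. The groups were close but did not overlap, and TEAD3 fell 1.2-fold (log2 fold change -0.26, SE 0.031, edgeR adjusted p = 3.6e-08). TEAD4 (chromosome 12, 2959330 to 3040673, plus strand) had 50.3, 52.1 and 50.3 CPM in shControl and 36.1, 36.9 and 36.6 CPM in shCK5. Its groups were also apart, and it fell 1.39-fold (log2 fold change -0.48, SE 0.0369, edgeR adjusted p = 1.08e-11).

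The makeup of the TEAD family differed between the groups, whereas their summed TEAD levels overlapped. In CPM per kb the 4 TEAD genes summed to 92.6, 90.5 and 89.0 in shControl and to 92.0, 91.2 and 89.8 in shCK5, ranges that overlap. TEAD1 made up 13.8% ± 0.613 of that sum in shControl and 40.5% ± 0.69 in shCK5 (SD, n = 3). TEAD2 made up 15.1% ± 1.15 and 3.16% ± 0.248, TEAD3 46.4% ± 0.3 and 38.6% ± 0.785, and TEAD4 24.7% ± 0.723 and 17.7% ± 0.353. TEAD3 therefore led in shControl, and TEAD1 stood just above TEAD3 in shCK5. Without division by length the sum was 348 ± 7.99 CPM in shControl and 531 ± 2.26 CPM in shCK5, because TEAD1 has the longest annotated exons of the 4 genes (10279 bases, against 2272 to 3046).

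**Figure D3:**
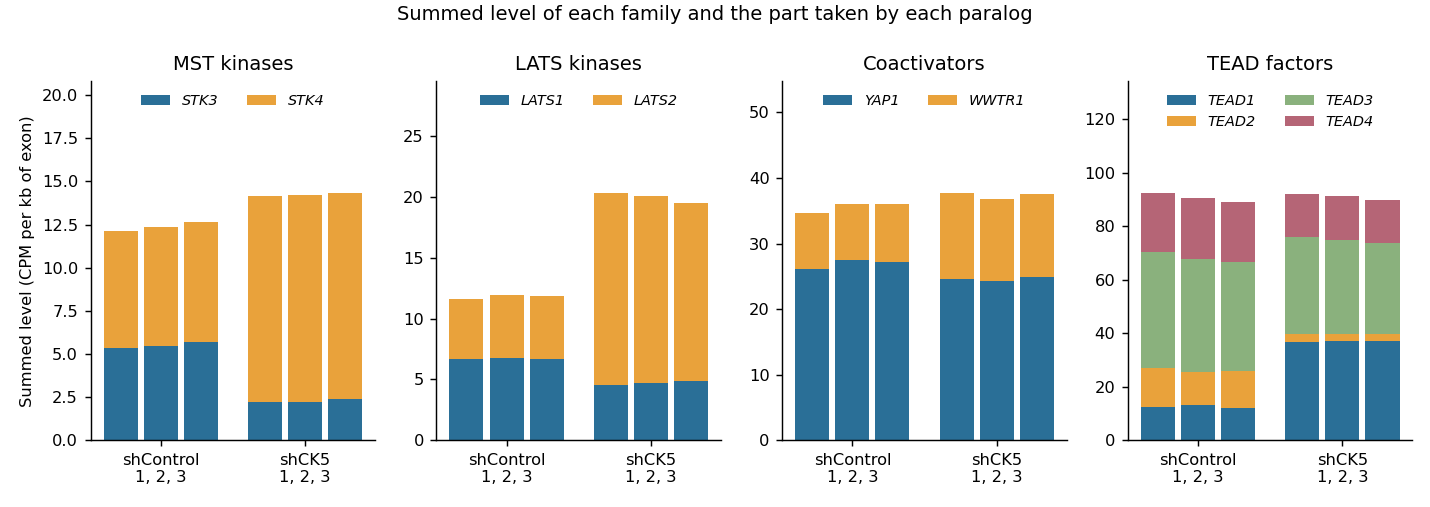
Summed level of each family per library in CPM per kb of exon, stacked by gene, with axes starting at 0. The TEAD stacks have like heights in all 6 libraries (89.0 to 92.6) but a larger TEAD1 part in shCK5, while the LATS stacks are higher in shCK5 (20.0 against 11.8 on average) and mostly LATS2.

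For the 3 paralog ratios and the 4 TEAD shares, an exact two-sided permutation test over the 6 libraries gave p = 0.1 each (adjusted p = 0.1 over 7), the smallest value that this test can give with 3 against 3, so it cannot pass 0.05. Values did not overlap between groups for any of the 7. The log2 difference was -2.12 for LATS1 to LATS2, -2.06 for STK3 to STK4 and -0.69 for YAP1 to WWTR1.

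The order of the 10 genes per length also differed between the groups. In shControl, TEAD3 was highest at 42.1 ± 1.11 CPM per kb, followed by YAP1 (26.9 ± 0.709), TEAD4 (22.4 ± 0.453), TEAD2 (13.7 ± 1.14), TEAD1 (12.5 ± 0.594), WWTR1, STK4, LATS1, STK3 and LATS2 (5.05 ± 0.151). TEAD2 and TEAD1 were the only neighbours in that order whose libraries overlapped. In shCK5, TEAD1 was highest at 36.9 ± 0.229 CPM per kb, then TEAD3 (35.2 ± 1.12), YAP1 (24.6 ± 0.279), TEAD4 (16.1 ± 0.184), LATS2 (15.3 ± 0.608), WWTR1, STK4, LATS1, TEAD2 and STK3 (2.29 ± 0.0708), with no overlap between neighbours. LATS2 thus moved from the lowest place to the fifth, and TEAD1 from the fifth to the first. Lengths are the union of annotated exons, and the order shifts with that choice: by the longest transcript, LATS2 moved from the lowest place to the seventh and TEAD2 was lowest in shCK5, while TEAD1 again went from the fifth to the first.

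All 10 genes were well covered, with 570 counts or more in each library, and every one stood above 64.3% or more of the genes tested in mean CPM. Exons of 5 of them overlap an annotated gene on the opposite strand: WWTR1 by 795 bases, YAP1 by 628, LATS1 by 408, TEAD2 by 319 and STK3 by 106. No source used here says whether counting used strand, and if it did not, reads of such stretches cannot be assigned to 1 of the genes. The partner of TEAD2, CD37, had at most 0.258 CPM in any library.

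Around these 10 genes, 77 others were followed in 6 lists of pathway roles, of which 74 were tested, 45 were higher and 27 lower, against 40.9% and 41.7% of all genes, with a median log2 fold change of 0.50 against -0.0194 over all genes. Among upstream activators and adaptors, 8 of 15 tested genes rose and 7 fell (median 0.16). The WWC family, scaffolds that bring LATS kinases to their activators, changed in both directions. WWC1, also called KIBRA, fell from 465 ± 11.7 to 149 ± 1.7 CPM, WWC3 rose from 43.8 ± 1.53 to 194 ± 0.367 CPM, and WWC2 went from 0.161, 0.326 and 0.167 CPM to 81.1, 78.5 and 77.9 CPM. NF2, which encodes the membrane scaffold merlin, fell 2.48-fold, from 125 ± 1.26 to 50.4 ± 1.25 CPM (log2 fold change -1.31, SE 0.0312, edgeR adjusted p = 2.32e-22). CRB3, a polarity protein of the apical membrane, fell from 14.7 ± 0.218 to 0.694 ± 0.191 CPM. FAT4, a giant protocadherin, had 12 counts in all shControl libraries together and 10868 in shCK5 (log2 fold change 9.77, SE 0.115).

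Of 9 kinases that act beside the MST or LATS kinases, 7 rose and 1 fell (median log2 fold change 0.55), against 40.9% and 41.7% of all genes. MAP4K4 rose from 120 ± 2.63 to 262 ± 5.89 CPM, STK38, a relative of the LATS kinases, from 133 ± 1.37 to 277 ± 5.91 CPM and MINK1 from 77.4 ± 2.51 to 152 ± 4.15 CPM. MAP4K1 fell from 1.26 ± 0.0562 to 0.119 ± 0.0639 CPM. MAP4K2 did not pass (log2 fold change -0.06, edgeR adjusted p = 0.19), although it passed as lower when libraries were scaled by total count or by upper quartiles. Under either of those scalings 6 of these kinases were higher and 2 lower, so the counts given for this list depend on the scaling.

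Of 14 tested inhibitors of the kinase cassette, parts of the STRIPAK phosphatase complex and LIM proteins that bind LATS kinases, 9 rose and 4 fell (median log2 fold change 0.44; 40.9% and 41.7% of all genes). The LIM protein genes AJUBA and LIMD1 had log2 fold changes of 1.26 (SE 0.0868) and 0.94 (SE 0.0378), and STRIP2, a STRIPAK scaffold, one of 1.25 (SE 0.0414). WTIP and STRN had log2 fold changes of -0.29 and -0.25 (SE 0.0429 and 0.0306). STRN3 did not pass (log2 fold change 0.01, edgeR adjusted p = 0.822). PPP2CA, a phosphatase subunit that cells use in general, is listed at 0 in every library and was not read as lack of expression.

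Of 14 genes for proteins that retain YAP1 and TAZ outside the nucleus or mark them for degradation, 8 rose and 6 fell (median log2 fold change 0.64; 40.9% and 41.7% of all genes). AMOT, which encodes angiomotin, a scaffold that binds YAP1 at junctions, had 112, 114 and 116 CPM in shControl and 1.84, 1.91 and 1.85 CPM in shCK5. That is a 61.1-fold fall (log2 fold change -5.93, SE 0.0508, edgeR adjusted p = 2.97e-31), the widest of this list. CSNK1E, YWHAE and PTPN14, which encode a casein kinase, an adaptor of phosphorylated proteins and a phosphatase that binds YAP1, rose, with log2 fold changes of 1.26, 1.15 and 1.09 (SE 0.0247 to 0.0424). SFN, another adaptor of phosphorylated proteins, and CSNK1D had log2 fold changes of -1.17 (SE 0.0283) and -0.70 (SE 0.0463).

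VGLL proteins bind TEAD factors at the surface used by YAP1 and TAZ, and of their 4 genes VGLL1 and VGLL3 differed widely between the groups. VGLL1 had 180, 164 and 183 CPM in shControl and 3.10, 2.94 and 2.88 CPM in shCK5. It fell 59-fold and left no overlap (log2 fold change -5.88, SE 0.0535, edgeR adjusted p = 8.75e-31). VGLL3 went the other way, from 0, 0.0752 and 0.0836 CPM, 12 counts in all, to 4.88, 4.33 and 5.41 CPM (log2 fold change 6.47, SE 0.287, edgeR adjusted p = 1.01e-16). VGLL4 fell slightly, from 34.8 ± 0.814 to 31.5 ± 0.496 CPM (log2 fold change -0.14, SE 0.0409, edgeR adjusted p = 0.00257). VGLL2 is listed at 0 in every library, which again was not read as lack of expression.

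**Figure D4:**
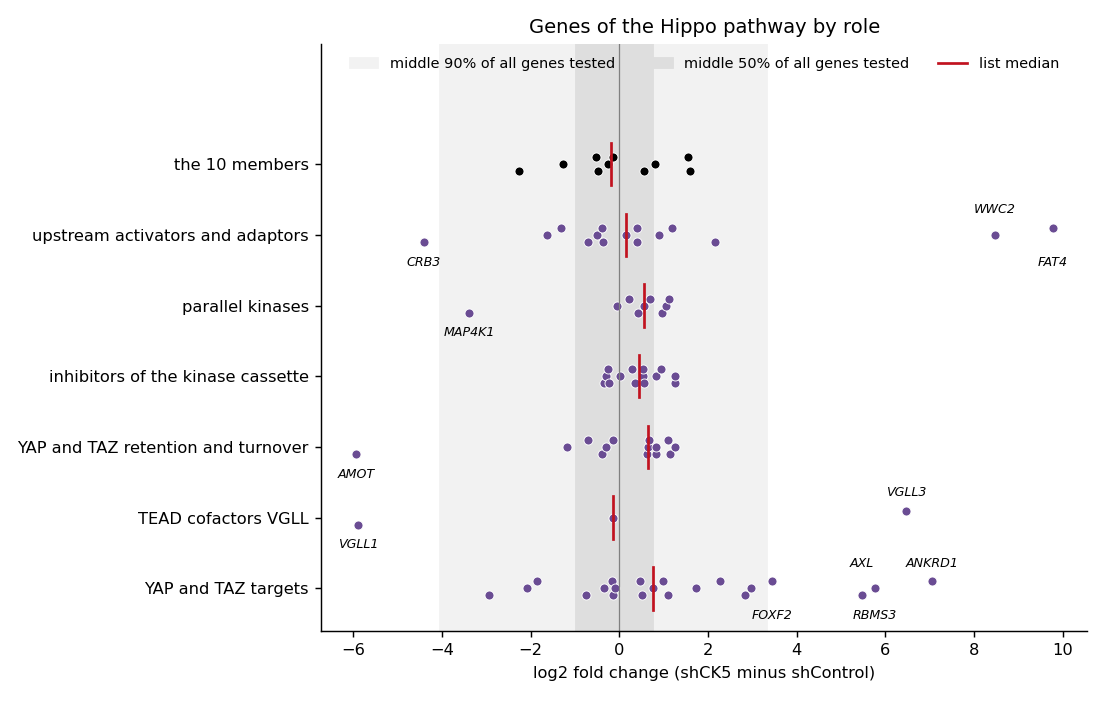
Log2 fold change (shCK5 minus shControl) of the 10 genes and of the tested genes of each pathway list, with a point per gene, the list median in red and the middle 50% and 90% of all genes tested in grey. The 10 genes lie between -2.25 and 1.60, inside the middle 90% of all genes, whereas AMOT, VGLL1, VGLL3, WWC2, FAT4, CRB3, ANKRD1, RBMS3, AXL and FOXF2 lie outside it.

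Among 21 common readouts of YAP and TAZ activity, which leave out LATS2 as one of the 10 genes, 13 were higher and 8 lower, with a median of 0.76 (40.9% and 41.7% of all genes). CYR61 rose from 162 ± 2.11 to 1276 ± 54 CPM, CTGF from 58.2 ± 7.32 to 194 ± 2.77 CPM and ANKRD1 by 7.06 on the log2 scale, while IGFBP3, GADD45A and GLS2 had log2 fold changes of -2.07, -1.86 and -2.94 (SE 0.0302 to 0.247). AXL and RBMS3 had log2 fold changes of 5.47 and 5.76 (SE 0.0322 and 0.124). AMOTL2 and PTPN14 belong to this list and to that of YAP1 and TAZ retention.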

How the data were processed

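RNA of 6 libraries, 3 labelled shControl and 3 labelled shCK5, was sequenced and the authors deposited a table of unnormalized read counts by gene symbol. Per the submitters' processing notes, the build was GRCh38 and the tools included STAR, cutadapt, Cufflinks and SAMtools; how reads were counted, with which strand setting and annotation, is not given in the sources used. Libraries were assigned by column name and held 68810882 to 83594772 counts. Libraries of a group differed by a chi-square per degree of freedom of 3.92 to 7.66, which treats counts as independent. Low counts were often even numbers, such as 102, 112 and 80 in shControl and 4, 2 and 2 in shCK5 for CDH5. The counts may therefore not be independent, and how they arose was not tested.

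Low counts were removed by filterByExpr (edgeR 4.0.16, R 4.3.3), which left 19567 genes, and scaled with TMM. Groups were compared over all genes tested with edgeR's quasi-likelihood test, no covariate and Benjamini-Hochberg adjustment, at a threshold of 0.05. The procedure was tested on simulated data in which few genes changed. That setting is unlike these data, where most genes passed, so it does not cover them. Levels are CPM, or CPM per kilobase of the union of exons in GENCODE v29 on GRCh38, which may differ from the annotation the authors used. All 10 genes and the 77 listed pathway genes matched 1 gene model each, and promoter sequences are from RefSeq on GRCh38.p14. Named pathway genes are the up to 3 higher and 3 lower of each list with the largest change among those past the threshold without overlap. CYR61, CTGF and ANKRD1 were also named, whatever their values. The genes that did not pass, those at 0, LCP1, CD14, PTPRC and CD37 were named after their values were seen. So were VIM, FN1, CLDN4, SPARC, PDGFRB, FAP and CDH5. A few items that these choices cover are not reported here. The 10 genes and all lists were chosen with earlier results of these data known. Alternatives were library-size and upper-quartile scaling, DESeq2 1.42.0, no filter, a replicate block, a test against a 2-fold change (glmTreat), other gene lengths and leaving out each library.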

Additional observations from a re-analysis of the deposited data

How the results depend on the processing

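All 10 genes kept their direction and their side of the threshold in each of 11 alternative fits, which covered 3 other scalings (1 of them in DESeq2), no filter, the replicate block and the omission of each library, as did every pathway gene named by the rule in the same fits. For YAP1, the smallest change, log2 fold changes ranged from -0.27 (library size alone) to -0.11, with a largest adjusted p of 0.00352. Scaling by library size alone moved the median over all genes tested from -0.0194 to -0.156, and upper-quartile scaling moved it to -0.117, so small changes are relative to the scaling. Tested against a 2-fold change with glmTreat, 2 of the 10 genes were higher and 2 lower, and 20 of the pathway genes were higher and 10 lower (16.4% and 20.4% of all genes). Same-numbered libraries of the groups did not deviate together (correlation -0.0178 to 0.0106). This correlation runs over many genes at once, so it cannot exclude a shared batch that is small or limited to some genes. With the replicate block 4 of the 10 genes were higher and 6 lower, as without it. The differences of the 3 paralog ratios do not depend on length, and those of the TEAD shares kept their sign under each length and without each library.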
